A study of Mus musculus with 2 samples.

Results

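The transcripts described here are the hormones of the anterior pituitary and their regulators, measured in a block of mouse brain that contained the hypothalamus. The set holds 8 genes: Prl, Gh, Cga, Fshb, Lhb, Tshb, Pou1f1 (Pit1 in the array's design) and Ghrhr. These genes are 8 of the 21441 named genes on the array and were measured by 9 probes. They were chosen by name after their signal ratios between diets and between times had been seen on these same 4 arrays. Their levels and ratios are therefore a description, with no test.

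From 8 weeks of age, the treated mice ate a normal diet for 2 weeks and then a diet carrying bezafibrate at 0.5% over the following 2 weeks, and were kept 5 more weeks without it. Bezafibrate is a lipid-lowering fibrate that activates the nuclear receptor PPAR-alpha. The labels do not settle at which point of this schedule the brains were taken, and strain and sex are not given in the sources used here. The 4 groups were bezafibrate-treated mice at ZT22, control mice at ZT22, bezafibrate-treated mice at ZT10 and control mice at ZT10, where ZT is the zeitgeber time in hours of the light cycle. Each group was 1 pool of equal RNA amounts from 4 mice on 1 one-colour array, so no value has a replicate and no p-value can be given.

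Each hormone is the product of a specialised secretory cell. Lactotrophs make prolactin (Prl), somatotrophs make growth hormone (Gh), thyrotrophs make the beta subunit of thyrotropin (Tshb), and gonadotrophs make the beta subunits of luteinizing hormone (Lhb) and follicle-stimulating hormone (Fshb). Cga encodes the alpha subunit shared by these 3 glycoprotein hormones. The POU-domain factor PIT1, encoded by Pou1f1, is needed for lactotrophs, somatotrophs and thyrotrophs, and Ghrhr is the somatotroph receptor for growth hormone-releasing hormone. The hypothalamus controls these cells from above: dopamine restrains prolactin release, and releasing hormones reach the gland by the portal vessels of the median eminence. The pars tuberalis, a thin sheet of pituitary tissue on the underside of the median eminence, is known for cells that make Cga and Tshb.

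Signals are the scanner software's processed signal, in units of brightness after background correction, printed with the software's own error for the spot. Ratios were taken after each array was divided by its 75th percentile signal, which was 893 units for bezafibrate at ZT22, 1010 for control at ZT22, 1050 for bezafibrate at ZT10 and 1010 for control at ZT10. The value after ± beside a log2 ratio combines the scanner errors of its 2 spots and holds no spread between mice or pools. A spot that the software did not call well above background is called dim, and a ratio with 1 dim spot is given as a bound. The share of features well above background was 70.65% and 70.37% with bezafibrate and control at ZT22, and 68.73% and 74.64% with bezafibrate and control at ZT10, and 0 features were saturated. All 4 arrays lay on 1 slide, the bezafibrate arrays at positions 3 and 4 and the control arrays at positions 1 and 2, so diet and side of the slide cannot be told apart. In bulk tissue, fewer cells of a type and less RNA per cell cannot be told apart either.

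The promoters of Prl, Tshb and Cga are shown because these genes had the widest ranges of level among the members with a promoter in RefSeq's GRCm38.p6 table. Each is the 250 bases before the transcription start, 5′ to 3′ on the gene's own strand. Capitals mark the core of the PIT1 binding motif, ATGNATA, and the TATA box, TATAAA, each searched on both strands. Prl lies at chr13:27057320-27057569 on the plus strand, Tshb at chr3:102782715-102782964 on the minus strand and Cga at chr4:34893529-34893778 on the plus strand.
Prl promoter: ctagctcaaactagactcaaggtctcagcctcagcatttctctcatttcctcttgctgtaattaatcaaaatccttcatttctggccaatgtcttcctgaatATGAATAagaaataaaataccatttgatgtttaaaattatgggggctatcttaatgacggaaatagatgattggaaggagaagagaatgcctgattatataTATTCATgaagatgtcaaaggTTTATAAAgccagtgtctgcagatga
Tshb promoter: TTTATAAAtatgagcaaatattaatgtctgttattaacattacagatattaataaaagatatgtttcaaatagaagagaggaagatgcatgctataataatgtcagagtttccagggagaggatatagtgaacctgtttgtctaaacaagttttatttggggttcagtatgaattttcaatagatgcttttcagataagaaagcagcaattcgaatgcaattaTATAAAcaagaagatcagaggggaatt
Cga promoter: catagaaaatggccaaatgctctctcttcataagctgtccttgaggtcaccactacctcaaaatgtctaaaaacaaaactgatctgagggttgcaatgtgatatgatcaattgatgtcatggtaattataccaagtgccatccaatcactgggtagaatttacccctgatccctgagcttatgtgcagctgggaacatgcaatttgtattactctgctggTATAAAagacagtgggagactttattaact
The Prl promoter held 2 PIT1 core motifs, at 148 to 142 and at 47 to 41 bases before the start, and a TATA box at 24 to 19 bases. Neither the Tshb nor the Cga promoter held the PIT1 core, while their TATA boxes near the start lay at 27 to 22 and at 30 to 25 bases. Tshb had a further TATA box at 248 to 243 bases. Beyond the capitals, Cga held 2 copies of TGANGTCA, a motif like the cyclic AMP response element, at 209 to 202 and at 139 to 132 bases, and the other hormone promoters of the table held none.

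The remaining members' promoters were searched in the same way. Lhb had a TATA box at 31 to 26 bases and 1 match to TGACCTTG, a motif of the gonadotroph factor SF-1, at 129 to 122 bases. Fshb had a TATA box at 30 to 25 bases. The first of the 2 promoters listed for Pou1f1 held 1 PIT1 core, at 57 to 51 bases, which overlaps a TATA box at 54 to 49 bases. The promoters of 6 of the 8 members were in the table, Gh and Ghrhr being the other members. Over all 32851 promoters of the table, 7.92% held the PIT1 core, 12.4% the TATA box, 7.49% TGANGTCA and 1.33% TGACCTTG. A match is a description of the letters in this window and not a binding site.

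Prl had the widest range of signal among the members. Its probe (A_51_P155514, NM_011164) read 2.41 ± 2.27 units with bezafibrate at ZT22, where the spot was dim, and 59.2 ± 6.55 units in control mice at ZT22. At ZT10 it read 17.7 ± 3.66 units with bezafibrate and 380 ± 38 units in control mice. The order of the arrays on the scaled signal, low to high, was bezafibrate ZT22, bezafibrate ZT10, control ZT22 and control ZT10. The lowest step in this order, 2.64 ± 1.39 on the log2 scale, involves the dim spot, and the next steps were 1.80 ± 0.34 and 2.68 ± 0.22. Both bezafibrate arrays were thus below both control arrays, an order whose share over all genes was not counted.

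The Prl ratio of bezafibrate to control at ZT10 was -4.48 ± 0.33 on the log2 scale, 22.3-fold lower with bezafibrate. It was the lowest ratio among the 16118 genes well above background on both arrays. At ZT22 Prl was at least 5.47-fold lower with bezafibrate, a bound of -2.45. Prl also differed with time: in control mice ZT22 against ZT10 gave -2.68 ± 0.22, a 6.42-fold lower signal and place 4 from the lowest of 16405 genes. In bezafibrate mice the same comparison gave only a bound, at least 1.57-fold lower at ZT22. Before background correction the spot medians over local background were 61 over 48 with bezafibrate and 121 over 48 in control mice at ZT22, and 73.5 over 51 with bezafibrate and 454 over 46 in control mice at ZT10. With normexp background correction and an offset of 50, which shrinks ratios of weak spots, the Prl log2 ratio was -2.72 at ZT10 and its bound at ZT22 was -0.82. For Prl over time in bezafibrate mice, normexp left no bound below 0.

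Gh followed the same order of arrays. Its probe (A_51_P104687, NM_008117) read 9.25 ± 2.18 units with bezafibrate at ZT22, a dim spot, and 63.9 ± 6.84 units in control mice at ZT22. At ZT10 it read 15.9 ± 3.23 units with bezafibrate and 201 ± 20.1 units in control mice. The 2 bezafibrate arrays were neighbours at the low end, separated by 0.55 ± 0.45 on the log2 scale, and the control arrays stood above them by steps of 2.06 ± 0.33 and 1.65 ± 0.21.

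At ZT10 the Gh ratio of bezafibrate to control was -3.72 ± 0.33, 13.1-fold lower with bezafibrate and place 3 from the lowest of all genes above background on both arrays. At ZT22 Gh was at least 5.90-fold lower with bezafibrate. ZT22 against ZT10 gave -1.65 ± 0.21 in control mice, a 3.15-fold lower signal at ZT22. In bezafibrate mice Gh was at least 1.41-fold lower at ZT22. Normexp correction gave -1.89 for the diet ratio at ZT10, and bounds of -0.57 at ZT22 and -0.01 for time in bezafibrate mice.

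**Figure D1:**
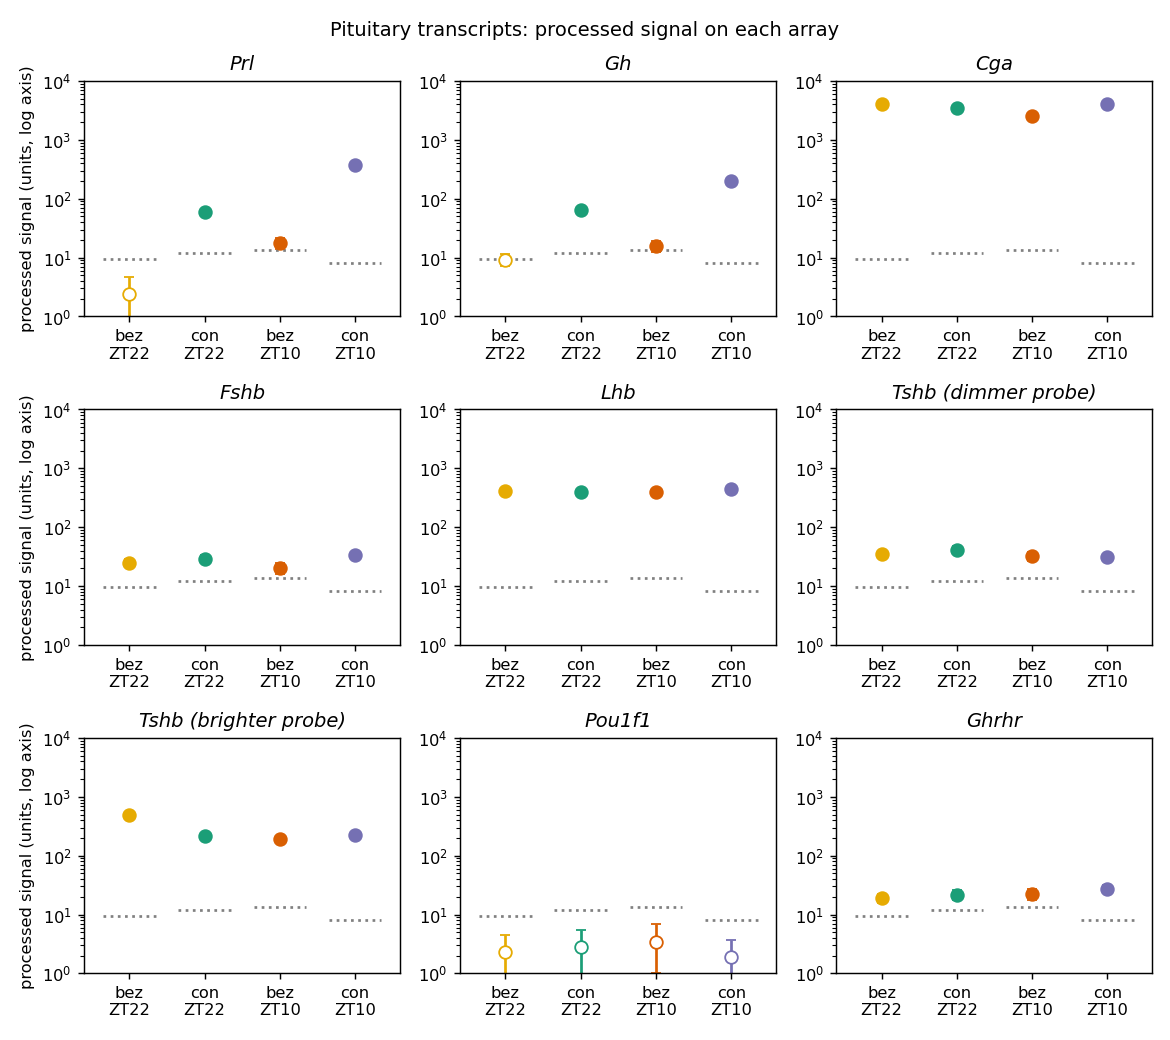
Processed signal in units (log axis) of the 9 probes of the pituitary transcripts on each array, with bezafibrate (bez) and control (con) at ZT22 on the left and at ZT10 on the right. Filled circles are spots well above background, open circles are dim spots, bars are the scanner error of the spot, and the dotted lines are the lowest signal well above background on that array. Prl and Gh were higher on both control arrays, the control ZT10 array reading 380 and 201 units, while Pou1f1 was dim on all 4 arrays.

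The shared glycoprotein subunit Cga did not have the order of arrays seen for Prl and Gh. Its probe (A_51_P504362, NM_009889) read 4150 units with bezafibrate and 3480 units in control mice at ZT22, and 2570 units with bezafibrate and 4010 units in control mice at ZT10. The bezafibrate ZT10 array was the lowest and the bezafibrate ZT22 array the highest, so the diets overlapped. The log2 ratio of bezafibrate to control was 0.43 ± 0.20 at ZT22, 1.35-fold higher, and -0.70 ± 0.20 at ZT10, 1.62-fold lower. ZT22 against ZT10 gave 0.92 ± 0.20 in bezafibrate mice and -0.20 ± 0.20 in control mice. From lowest to highest the steps were 0.49, 0.20 and 0.23, each with a scanner error of 0.20, so the upper 3 arrays lay close together.

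Tshb was measured by 2 probes that disagreed. Probe A_52_P146711 (NM_009432) read 492 units with bezafibrate and 218 units in control mice at ZT22, and 190 units with bezafibrate and 226 units in control mice at ZT10. On this probe the bezafibrate ZT22 array stood alone above the others. The log2 ratio of bezafibrate to control was 1.35 ± 0.21 at ZT22, 2.55-fold higher and place 27 from the highest of 16215 genes, and -0.31 ± 0.21 at ZT10. In bezafibrate mice ZT22 against ZT10 gave 1.61 ± 0.21, 3.05-fold higher, and in control mice -0.05 ± 0.21.

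The second Tshb probe, A_51_P252243 (AK036251), read 34.5 units with bezafibrate and 41.5 units in control mice at ZT22, and 31.9 units with bezafibrate and 31.6 units in control mice at ZT10. Its log2 ratio of bezafibrate to control was -0.09 ± 0.27 at ZT22 and -0.04 ± 0.31 at ZT10, both within the scanner error. ZT22 against ZT10 gave 0.35 ± 0.31 in bezafibrate mice and 0.39 ± 0.27 in control mice on this probe. Its signals were weak, with spot medians of 82 over a local background of 44.5 with bezafibrate and 88 over 49 in control mice at ZT22. The higher Tshb signal with bezafibrate at ZT22 therefore rests on 1 of 2 probes. With the mean of both probes the log2 ratio at ZT22 was 0.63, below 2-fold.

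The gonadotropin beta subunits differed less between the arrays. Lhb (A_51_P476529, NM_008497) read 415 units with bezafibrate and 393 units in control mice at ZT22, and 401 units with bezafibrate and 450 units in control mice at ZT10. Its log2 ratio of bezafibrate to control was 0.26 ± 0.20 at ZT22 and -0.22 ± 0.20 at ZT10, little more than the scanner error, and its range over the 4 arrays was 0.28. Fshb (A_51_P187052, NM_008045) read 24.7 units with bezafibrate and 29.3 units in control mice at ZT22, and 20.3 units with bezafibrate and 34 units in control mice at ZT10. Its log2 ratio was -0.07 ± 0.30 at ZT22 and -0.80 ± 0.35 at ZT10, 1.74-fold lower at ZT10. That ZT10 value was -0.23 with normexp correction. ZT22 against ZT10 gave 0.52 ± 0.37 for Fshb and 0.28 ± 0.20 for Lhb in bezafibrate mice, against -0.21 ± 0.28 and -0.20 ± 0.20 in control mice.

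Both regulators were weak. Pou1f1 (A_52_P318281, NM_008849) was dim on every array, at 2.27 units with bezafibrate and 2.78 units in control mice at ZT22, and at 3.41 units with bezafibrate and 1.88 units in control mice at ZT10. These lay below the lowest signal well above background, which was 9.57 and 12.0 units at ZT22 and 13.6 and 8.1 units at ZT10, bezafibrate first each time. No ratio can be given for it. Ghrhr (A_51_P475545, NM_001003685) read 18.9 units with bezafibrate and 21.6 units in control mice at ZT22, and 22.5 units with bezafibrate and 27.6 units in control mice at ZT10. Its log2 ratio of bezafibrate to control was -0.02 ± 0.38 at ZT22 and -0.35 ± 0.36 at ZT10, within the scanner error at both times.

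Counted over the set, 7 of the 8 members gave a ratio or bound in each comparison. At ZT10 all 7 were lower with bezafibrate, with a median log2 ratio of -0.70, while 47.9% of 17285 genes were lower and their median was 0. Past 2-fold, 2 members were lower (Prl and Gh), where 0.822% of all genes were lower and 0.688% higher by that fold. Past 1.5-fold, 4 members were lower (Cga and Fshb in addition), against 2.36% of all genes lower and 1.42% higher. These counts come from the contrast that chose the members, so nothing is read from them.

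At ZT22 the members ran both ways, as did all genes. With bezafibrate 4 members were lower and 3 higher, where 47.88% of 16949 genes were lower. The median of the members was -0.02, against 0.01 over all genes. Past 2-fold Prl and Gh were lower and Tshb higher, where 1.73% of all genes were lower and 0.714% higher. No further member passed 1.5-fold, where 3.49% of all genes were lower and 1.99% higher. Prl and Gh were the only members more than 2-fold lower with bezafibrate at both times, and 18 of 16691 genes, 0.108%, were so.

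**Figure D2:**
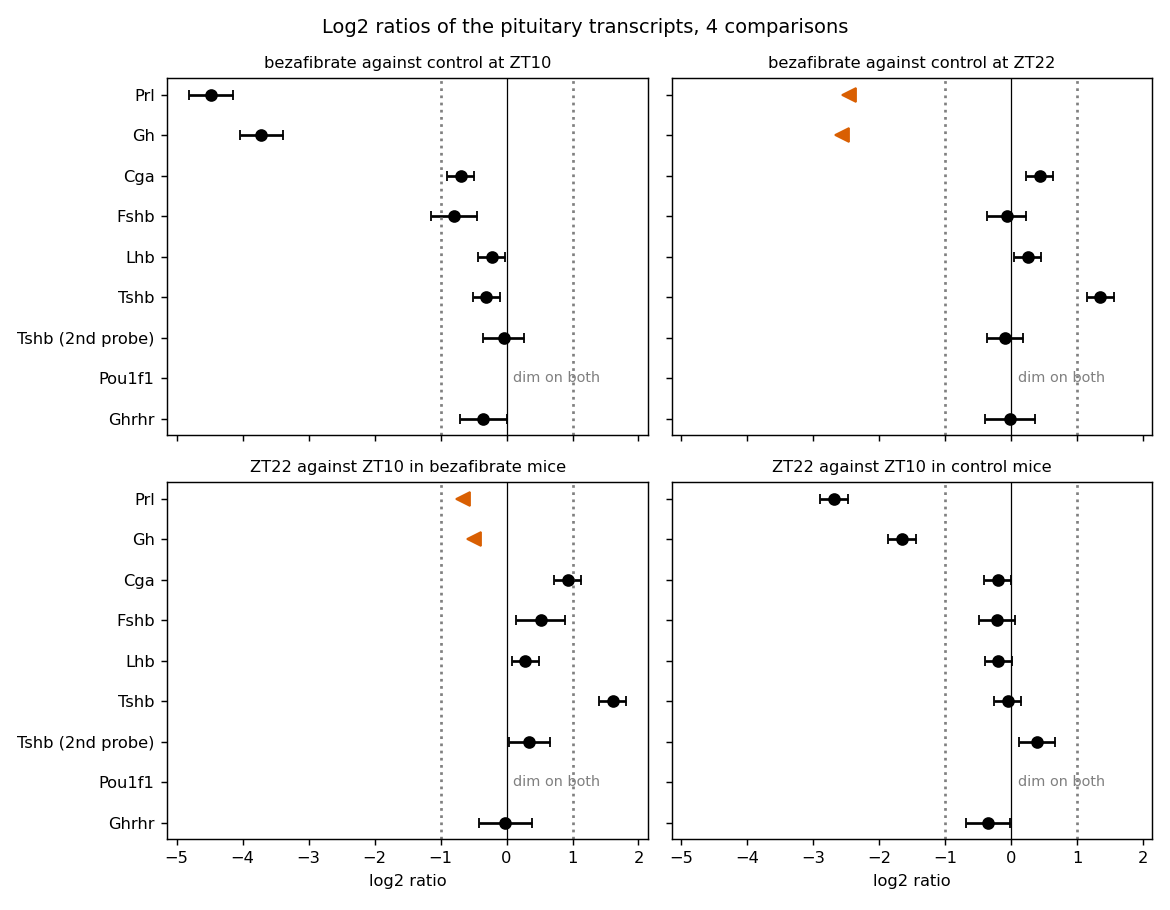
Log2 ratios of the 9 probes in the 4 comparisons, with bars for the scanner error of the ratio and dotted lines at 2-fold. Left-pointing triangles are bounds where the numerator spot was dim, and Pou1f1 has no ratio. Prl and Gh lie at -4.48 and -3.72 for bezafibrate against control at ZT10, and Tshb reaches 1.35 at ZT22 on 1 of its 2 probes.

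Time of day was compared within each diet. In bezafibrate mice 1 member, Tshb, was past 2-fold higher at ZT22 and 0 members were past 2-fold lower, where 0.848% of all genes were higher and 0.848% lower. The median of the 7 members was 0.28, against 0.04 over all genes. In control mice all 7 members were lower at ZT22, with a median of -0.21 against 0.03 over all genes, and 41.32% of 17395 genes were lower. Tshb was lower only on probe A_52_P146711, where it was within the scanner error, as were Fshb and Lhb. Cga, at -0.20 ± 0.20, and Ghrhr, at -0.35 ± 0.33, were near that error. In control mice 2 members were past 2-fold lower, Prl and Gh, where 1.1% of all genes were lower and 1.74% higher. The diet and time comparisons share arrays, so they are not separate evidence.

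**Figure D3:**
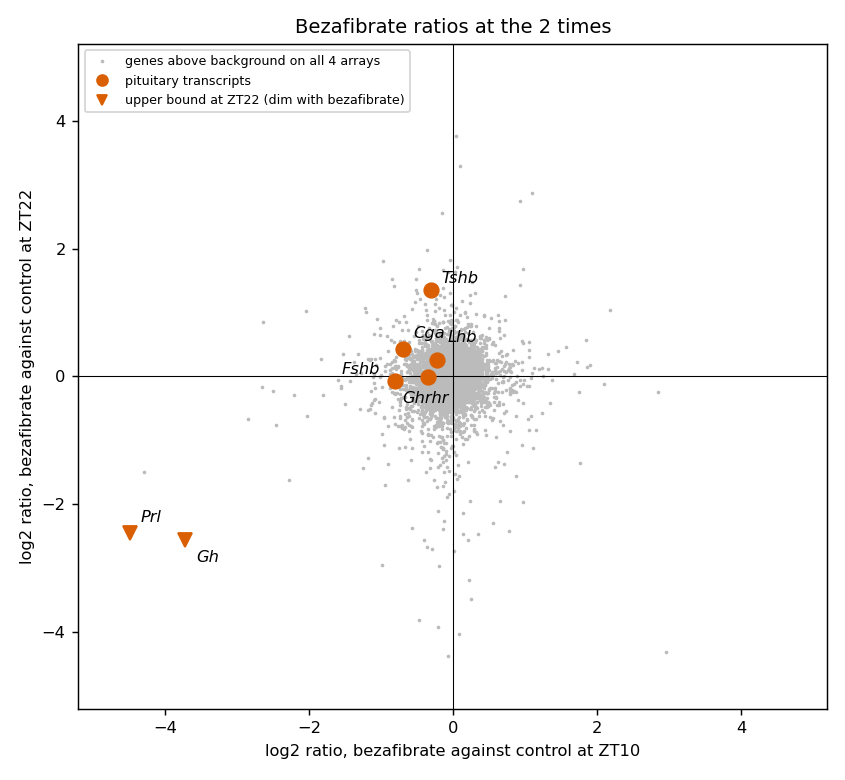
Log2 ratio of bezafibrate to control at ZT22 (vertical) against that at ZT10 (horizontal) for genes above background on all 4 arrays (grey) and for 7 pituitary transcripts (orange). Triangles are upper bounds at ZT22, where the bezafibrate spot was dim. Prl and Gh lie far to the lower left, at -4.48 and -3.72 on the horizontal axis, while Tshb and Cga lie above 0 on the vertical axis, at 1.35 and 0.43.

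The authors' deposited table holds their own ratio of bezafibrate to control per probe, on a linear scale. For Prl the authors' deposited table gave 0.0422 at ZT10 and a blank at ZT22. For Gh the authors' deposited table gave 0.0716 at ZT10 and a blank at ZT22. For Cga the authors' deposited table gave 1.283 at ZT22 and 0.58 at ZT10. For Tshb the authors' deposited table gave 2.422 at ZT22 for A_52_P146711 and 0.894 for A_51_P252243. Pou1f1 was blank at both times in the authors' deposited table.

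Genes listed for pituitary cells without being hormones were set beside the members. How much of their signal came from pituitary cells in this block was not tested. Of 17 lineage transcription factors on the array, Hesx1 and Neurod4 were dim on every array. At ZT22 6 were lower and 8 higher with bezafibrate of 14 with a value, and at ZT10 the counts were likewise 6 and 8. Their median log2 ratio was 0.07 at either time. Foxl2, a gonadotroph and thyrotroph factor, was -0.93 ± 0.39 for bezafibrate against control at ZT22 and 0.22 ± 0.32 at ZT10. Six6 gave -0.04 ± 0.21 at ZT22 and -0.63 ± 0.23 at ZT10, and Neurod1 was at -0.68 ± 0.31 at ZT22. Sox3 went the other way at ZT10, at 0.73 ± 0.36, and gave -0.21 ± 0.37 at ZT22.

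Receptors by which the hypothalamus and periphery act on pituitary cells showed no common shift at ZT10. Of 13 on the array, 5 were lower and 6 higher with bezafibrate at ZT10, with a median of 0.02, and the gonadotroph receptor Gnrhr was dim on every array. At ZT22 10 of 12 were lower, with a median of -0.11. The dopamine D2 receptor Drd2, which lactotrophs share with striatal neurons, gave 0.32 ± 0.20 at ZT22 and -0.05 ± 0.20 at ZT10. The ghrelin receptor Ghsr read 70.2 units with bezafibrate and 189 units in control mice at ZT22, and 37.4 units with bezafibrate and 37.5 units in control mice at ZT10. Its ratio at ZT22 was -1.25 ± 0.21, while its second probe gave 0.35.

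The hypothalamic factors that control the hormones had 1 member past 1.5-fold by diet, Slc6a3 at ZT10. Of 12 releasing and inhibiting factors on the array, 5 were lower and 7 higher with bezafibrate at ZT22 (median 0.06) and 8 were lower and 4 higher at ZT10 (median -0.11). Th, the rate-limiting enzyme of dopamine synthesis, gave 0.05 ± 0.20 at ZT22 and -0.14 ± 0.20 at ZT10. Slc6a3, the dopamine transporter, gave 0.08 ± 0.20 at ZT22 and 0.71 ± 0.20 at ZT10, where it read 1050 units with bezafibrate and 618 units in control mice. Ghrh, the releasing hormone for growth hormone, gave 0.45 ± 0.20 at ZT22 and -0.14 ± 0.20 at ZT10. Trh, the releasing hormone for thyrotropin, gave -0.21 ± 0.20 at ZT22 and -0.16 ± 0.20 at ZT10.

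Genes of secretory granules and prohormone processing were near 0 at both times, with medians of 0.03 at ZT22 and -0.06 at ZT10 over 11 genes. Pomc, the precursor of corticotropin and melanocortins, was the one gene among them past 1.5-fold by diet. It read 9840 units with bezafibrate and 15900 units in control mice at ZT22, and 7380 units with bezafibrate and 15700 units in control mice at ZT10. Both bezafibrate arrays were below both control arrays, by -0.51 ± 0.20 at ZT22 and -1.15 ± 0.20 at ZT10. Pomc is made both by pituitary cells and by neurons of the arcuate nucleus, which this block contains. Receptors and targets of the hormones had medians of 0.03 at ZT22 and 0.00 at ZT10, with none of them past 1.5-fold by diet on the probe used. At ZT10, 1 further probe of Stat5b gave 1.44 and 1 further probe of Ghr gave -0.97, while their other further probes lay between -0.05 and 0.21.

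The other lobes and the pars tuberalis were described in the same way. Of 6 pars tuberalis genes, 1 was lower and 5 higher with bezafibrate at ZT22, with a median of 0.39, and 2 were lower and 3 higher at ZT10, with a median of 0.04. Cga and Tshb are members of that list too. Of the others, Eya3 gave 0.08 ± 0.20 at ZT22 and 0.04 ± 0.20 at ZT10, and the melatonin receptor Mtnr1a was dim on 2 of the 4 arrays. In the intermediate and posterior lobe list the median was 0.04 at ZT22 and -0.11 at ZT10. There Rax, a gene of tanycytes and posterior lobe cells, gave 0.87 ± 0.22 at ZT22, and Pax7, a melanotroph factor, gave -0.63 ± 0.39.

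**Figure D4:**
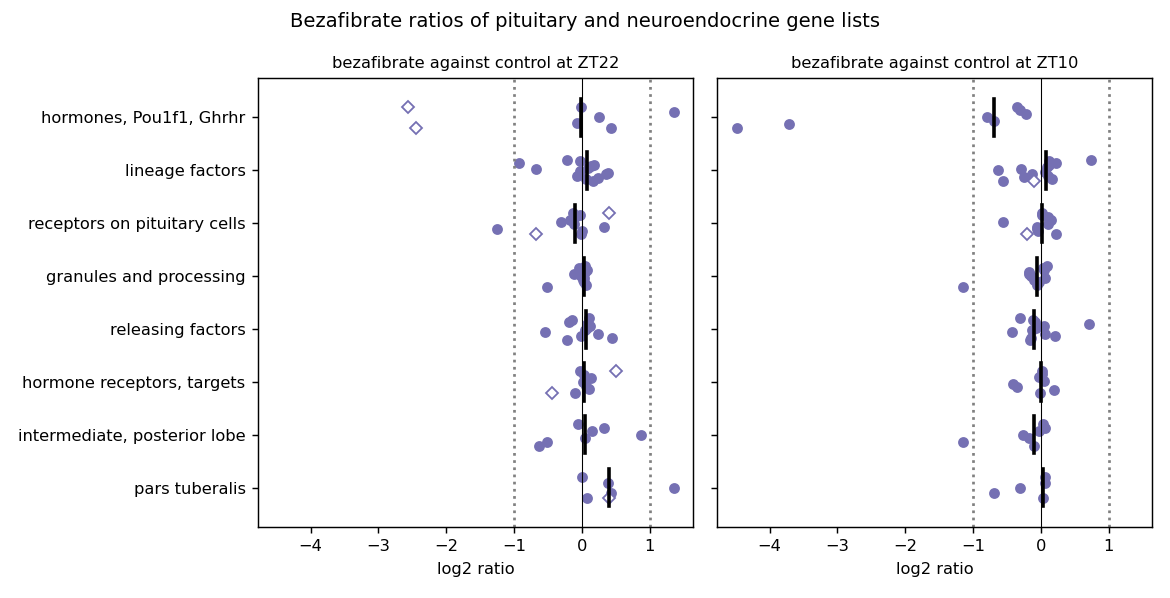
Log2 ratios of bezafibrate to control at ZT22 (left) and ZT10 (right) for the genes of 8 lists; filled circles are ratios of spots above background, open diamonds are bounds and black bars are medians of a list. Prl and Gh stand apart at the left of the top row in both panels, while the medians of the 7 other lists lie between -0.11 and 0.39.

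Mouse Prl belongs to a large family of placental paralogs, so these were examined for a shared signal. Of 22 paralogs on the array, 16 were dim on every array and only Prl3b1 and Prl3d1 were above background on all 4. Prl3b1 read 62.1 units with bezafibrate and 71 units in control mice at ZT22, and 53.2 units with bezafibrate and 71.4 units in control mice at ZT10. Its log2 ratio of bezafibrate to control was -0.02 ± 0.22 at ZT22 and -0.48 ± 0.22 at ZT10. Prl3d1 gave -0.19 ± 0.21 at ZT22 and -0.31 ± 0.22 at ZT10. Prl7c1 was above background with bezafibrate at ZT22 alone, at 92.2 units, at least 8.69-fold higher than in control mice. Prl4a1 was above background with bezafibrate at ZT10 alone, at 16.1 units, at least 1.91-fold higher than in control mice. Prl3a1 and Prl8a8 were above background in control mice at ZT10 alone, at 12.2 and 9.11 units. These signals were too weak to give a diet bound below 0. For Prl3b1 and Prl3d1 both bezafibrate arrays were below both control arrays on the scaled signal. The share of all genes with that order was not counted, so nothing is read from it. The ratios of Prl3b1 and Prl3d1 were small beside those of Prl, and at ZT22 they were within the scanner error.

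Genes whose profile over the 4 arrays was most like that of Prl were ranked by Euclidean distance of the centred log2 values, with dim spots at the limit, among 17543 genes. Prss43 was nearest, at a distance of 0.69, and Gh followed at 0.81, where the Prl profile itself had a length of 3.98. The next were A730018C14Rik, Qrfp, Olfr385, Olfr1264, Creb3l1, Syt15, Olfr137 and Pla2g10, at 1.46 to 1.79. Prss43 read 10.8 units with bezafibrate and 34.4 units in control mice at ZT22, and 15.4 units with bezafibrate and 290 units in control mice at ZT10. Creb3l1 read 26.3 units with bezafibrate and 47.1 units in control mice at ZT22, and 42.8 units with bezafibrate and 296 units in control mice at ZT10. Of these 10 genes, only Prss43 and Creb3l1 were above background on all 4 arrays.

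For Cga, whose profile had a length of 0.683, the nearest genes included Htr1b at 0.07, AI662501 at 0.10, 8030453O22Rik at 0.13 and Fxyd2 and Dusp23 at 0.15. Pate5, Deptor, Olfr1036 and Olfr1417 were at 0.15 to 0.17. Htr1b, AI662501 and Olfr1036 were dim with bezafibrate at ZT10, and Htr1b was also dim in control mice at ZT22. The further probe of 8030453O22Rik was dim on all 4 arrays. That of Olfr1036 was above background in control mice at ZT22 alone. Deptor read 2490 units with bezafibrate and 1890 units in control mice at ZT22, and 1420 units with bezafibrate and 2490 units in control mice at ZT10. Its further probe A_51_P445841 gave smaller log2 ratios of bezafibrate to control, 0.12 at ZT22 and -0.21 at ZT10. The weaker probe A_51_P408329 gave 0.75 and -0.33. With 4 arrays, many genes lie close to so short a profile.

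The tissue label was checked against markers, because the pituitary hangs from the block that was dissected. Of 13 genes that define hypothalamic nuclei, 12 were above background on all 4 arrays, Otp being the other, with 27.1 units with bezafibrate at ZT22 alone. Among them the feeding peptides Agrp and Npy were higher with bezafibrate, at 1.68 ± 0.20 and 1.26 ± 0.20 at ZT22 and 0.98 ± 0.20 and 0.72 ± 0.20 at ZT10. Avp, encoding vasopressin, gave -0.32 ± 0.20 at ZT22 and -0.67 ± 0.20 at ZT10. Their summed signal, as a percent of the 75th percentile, was 27110 with bezafibrate and 26610 in control mice at ZT22, and 22420 with bezafibrate and 25580 in control mice at ZT10. The summed signal of the 8 pituitary members was 572.7 and 422.6 at ZT22, and 308.6 and 527.8 at ZT10, bezafibrate first. Most of each sum was Cga, with 464.7 and 344.6 at ZT22, and 244.8 and 397 at ZT10. As for the label of the set, the 6 hormone genes and Ghrhr were above background on both control arrays, while the defining factor Pou1f1 was dim on all 4 arrays.

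Genes of neighbouring tissues also differed between the arrays. Choroid plexus genes were higher with bezafibrate in 6 of 7 at ZT22, with a median of 1.31, and had a median of -0.07 at ZT10. The log2 ratio at ZT22 was 3.76 for Ttr, 2.56 for Kcne2, 1.63 for Aqp1 and 1.31 for Folr1, whose second probe gave -0.25. Their summed signal was 948.4 with bezafibrate and 721.2 in control mice at ZT22, and 585.7 with bezafibrate and 613.2 in control mice at ZT10. Clic6, the gene of this list that was not higher at ZT22 (-0.02 ± 0.20), made most of each sum. All 8 striatal genes were higher with bezafibrate at ZT22 (median 0.57), with sums of 9367 with bezafibrate and 6845 in control mice. At ZT10 the sums were 7364 and 7447. Penk, at 66100 units with bezafibrate and 55100 units in control mice at ZT22, made most of each striatal sum. Adora2a gave only 0.01 ± 0.20 at ZT22, while its second probe gave 1.44. Ppp1r1b gave 0.96, Drd1 0.89 and Rgs9 0.71 at ZT22. Thalamic genes were lower in 6 of 7 at ZT22 (median -0.27) and in 7 of 7 at ZT10 (median -0.46), with sums of 1190 and 1266 at ZT22 and 1123 and 1426 at ZT10, bezafibrate first. Tnnt1 gave -1.10, Ramp3 -0.81 and Prkcd -0.74 at ZT10. Genes of meninges and fibroblasts were lower with bezafibrate in 6 of 8 at ZT22 (median -0.10) and in 8 of 8 at ZT10 (median -0.12), Col3a1 giving -0.02 and -0.64. Over time, Slc6a13, Ogn and Aldh1a2 of that list were higher at ZT22 in both diets, by 0.86, 0.71 and 0.67 with bezafibrate and by 0.78, 0.60 and 0.52 in control mice. Oligodendrocyte genes were lower with bezafibrate in 7 of 7 at ZT22 (median -0.29) and in 5 of 7 at ZT10 (median -0.07), and the 2 blood genes on the array, Hba-a1 and Alas2, had medians of -0.31 and 0.03. The 9 housekeeping genes had medians of 0.08 at ZT22 and -0.04 at ZT10. The part of these tissues, and of the amount of pituitary tissue in each pool, in the Prl, Gh and Tshb differences was not tested.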

How the data were processed

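Hypothalamic RNA was pooled from 4 mice a group, 400 ng was labelled with Cy3, and each pool was hybridised to 1 Agilent whole mouse genome array, per the labels' protocols. The deposited array files hold the intensity of each feature: per the file headers, Feature Extraction 9.5.1.1 gave a background-corrected processed signal, its error and a flag for spots well above background. A deposited table holds the authors' ratio of bezafibrate to control per probe. Set against the arrays it was linear, ran bezafibrate over control, and lay below or above the signal ratios by 1 factor per time, -0.1433 (ZT10) and 0.104 (ZT22) in log2. Its column medians were 0.947 and 0.958, and its centring is not given in the sources used here. Array precision is limited by the number of arrays.

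The 43379 non-control features were averaged to 41174 probes, scaled to each array's 75th percentile and taken to log2. RefSeq's mouse gene table named 22951 probes by accession, 5850 by symbol and 3944 by an older symbol, 2225 kept the file's name and 6204 had none. A gene was read from its probe with the highest mean signal. Ratios with 1 dim spot are bounds, with the dim spot at the higher of its own signal and the lowest signal well above background on that array. The counting was tested on simulated data. Alternatives included normexp and quantile normalization in limma 3.58.1 (R 4.3.3). Tables were computed with pandas 2.3.3 and numpy 2.4.6.

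The members, the gene lists and the settings were chosen with earlier results of these data known. All member probes are reported. From each list, up to 4 genes past 1.5-fold are named, with Pomc, Drd2, Th, Trh and Ghrh whatever their values. Eya3, Mtnr1a, Sox3, Stat5b, Ghr, Prl3a1, Prl8a8, Clic6, Adora2a and Penk were added after their values were seen. Some genes that this rule names are not reported here. The 10 nearest profiles are named for Prl, and for Cga those of the 10 with an unambiguous symbol.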

Additional observations from a re-analysis of the deposited data

Results flagged for a closer look

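For 3 members the bezafibrate ratio ran one way at ZT22 and the other way at ZT10. The log2 ratio at ZT22 minus that at ZT10 was 1.66 for Tshb on probe A_52_P146711, 1.13 for Cga and 0.48 for Lhb. The scanner error of each of these differences was 0.29. The second Tshb probe gave -0.05 ± 0.41. With 1 pool per group the difference between times was not tested.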

How the results depend on the processing

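Over the alternatives that gave a value, 24 of the 28 member ratios kept the same sign. The exceptions, all near 0, were Fshb and Ghrhr for diet at ZT22, Ghrhr for time in bezafibrate mice and Tshb for time in control mice. Not every alternative could change a sign. Keeping only genes above background on both arrays repeated or removed a value, and the mean of all probes changed Tshb alone. The other scalings shifted all members of a comparison alike and by little, so they could reverse only ratios near 0. A bound is given only on the side of the spot above background. The bounds of Prl and Gh, for diet at ZT22 and for time in bezafibrate mice, therefore could not change sign. Nothing is read from their kept sign. Normexp left no value for Prl for time in bezafibrate mice, which was not counted as a change. Of the counts and medians over the set, 48 alternative values stayed close and 8 moved. At 1.5-fold the count of members was 4 for diet at ZT10, in place of 2, and 3 for time in bezafibrate mice, in place of 1. For diet at ZT22 the count was 1, in place of 3, with normexp, with genes above background on both arrays alone and in the authors' deposited table, which leave out or shrink the bounds of Prl and Gh. With the mean of all probes the count for time in bezafibrate mice was 0. The median for diet was -0.28 at ZT10 with normexp, in place of -0.70, and 0.26 at ZT22 with genes above background on both arrays alone, in place of -0.02. Normexp also gave -1.85 for Prl and -1.33 for Gh for time in control mice, and 1.13 for Tshb for diet at ZT22.

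No paired analysis was possible because each group was 1 array, so there was also no replicate to leave out. Weak signal over background limits Prl and Gh with bezafibrate, Fshb, Ghrhr, Pou1f1 and the second Tshb probe.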
